A study of Homo sapiens with 4 samples.

Results

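The ROBO receptors ROBO1, ROBO2, ROBO3 and ROBO4, the SLIT ligands SLIT1, SLIT2 and SLIT3, and the netrin receptor family member UNC5B were followed through 4 RNA-seq libraries of differentiating H1 cells. H1 is an established line of human embryonic stem cells (hESCs). The genes were taken by symbol from the deposited expression table, and all 8 were found, each in 1 of its 58365 rows. Cells of all libraries had received 40 ng/ml activin A and 50 ng/ml BMP4 for 2 days, and then 40 ng/ml VEGF and 50 ng/ml bFGF for 3 days. For the last 3 days they stayed in VEGF and bFGF, with SB431542 (SB, 2 libraries) or with its solvent DMSO (2 libraries), until collection at day 8. SB431542 inhibits the type I receptors of the TGFβ and activin branch, so the comparison of SB with DMSO asks how RNA levels stand when that signal is blocked during the endothelial-to-hematopoietic transition (EHT). The text of the study describes collecting CD31+ cells, which the sample labels do not mention. Nothing in the labels says whether the replicates came from separate cultures, so p-values measure the spread between these libraries only.

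SLIT proteins are secreted and bind the extracellular part of ROBO receptors such as ROBO1 and ROBO2. The pathway is best known for repelling axons at the midline of the nervous system, and it also acts on migrating endothelial cells. ROBO4 is the endothelial member of the family, shorter in its extracellular part than ROBO1 and ROBO2, and UNC5B, a receptor for netrins, is known as a partner that ROBO4 binds on endothelium. ROBO3 is known from commissural neurons. ROBO receptors have no enzymatic activity and pass the signal on through adaptors and regulators of small GTPases. SLIT2 and SLIT3 also carry, in their introns, the genes of the microRNA miR-218.

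The sequence of miR-218-5p is shown because its genes lie inside members of this group and because it pairs with others of them. RefSeq (GRCh38.p14) gives the same mature sequence at chr4:20528299-20528319 (+ strand, inside SLIT2) and chr5:168768211-168768231 (- strand, inside SLIT3). It is printed from 5′ to 3′ with the seed in capitals.
hsa-miR-218-5p: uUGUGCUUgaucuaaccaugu
The reverse complement of that seed, AAGCACA, was searched for in the longest annotated 3′ UTR of each gene of GENCODE 29, on the transcribed strand. ROBO1 held 1 match, ROBO2 held 2, SLIT2 held 2 and SLIT3 held 1, and no match stood in ROBO3, ROBO4, SLIT1 or UNC5B. Of all 19163 genes with a 3′ UTR, 14.0% held a match. The searched UTRs ran from 216 bases in ROBO3 to 4721 bases in SLIT3, and a longer UTR has more places for a match. The receptor sites follow with their flanks, the match in capitals.
ROBO1 site (chr3:78597936-78597942, - strand): ttttttttttggttttaaAAGCACAatca
ROBO2 site 1 (chr3:77646511-77646517, + strand): gcaattttatttggtgatAAGCACAaatc
ROBO2 site 2 (chr3:77648956-77648962, + strand): tgcaatcatgtccaatacAAGCACAgctt
Both hairpin genes, MIR218-1 and MIR218-2, were listed at 0 in all 4 libraries. Mature microRNAs are too short for this type of library, and no level of miR-218 is given.

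The windows before the transcription start are shown for the neighbouring genes ROBO3 and ROBO4, and for SLIT3, the gene with the largest difference between the groups. Each holds 250 bases before the RefSeq start nearest to the annotated gene end (GRCh38.p14), at chr11:124865182-124865431 (+ strand) for ROBO3, chr11:124897866-124898115 (- strand) for ROBO4 and chr5:169301140-169301389 (- strand) for SLIT3. Capitals mark matches, on either strand, to CAGAC (a SMAD box), GGGCGG (a GC box), AGGAAG (an ETS core) or TGGGAA (an RBPJ core).
ROBO3: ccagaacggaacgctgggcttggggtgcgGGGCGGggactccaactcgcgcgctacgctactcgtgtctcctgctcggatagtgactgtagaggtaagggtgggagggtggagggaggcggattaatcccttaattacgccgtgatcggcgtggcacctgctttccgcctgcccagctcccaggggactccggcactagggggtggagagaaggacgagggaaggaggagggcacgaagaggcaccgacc
ROBO4: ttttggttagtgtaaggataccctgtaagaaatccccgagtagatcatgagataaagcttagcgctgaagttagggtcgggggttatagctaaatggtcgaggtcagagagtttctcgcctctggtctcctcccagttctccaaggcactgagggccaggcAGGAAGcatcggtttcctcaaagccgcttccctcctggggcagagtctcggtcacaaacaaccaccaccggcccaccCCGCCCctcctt
SLIT3: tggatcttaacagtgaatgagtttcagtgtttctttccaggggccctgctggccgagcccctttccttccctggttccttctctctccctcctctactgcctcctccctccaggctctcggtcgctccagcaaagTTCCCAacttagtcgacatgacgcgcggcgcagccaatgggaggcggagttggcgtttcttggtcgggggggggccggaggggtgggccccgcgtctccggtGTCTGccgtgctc
Counted from the start base as position 0, ROBO3 held a GC box at -221, ROBO4 an ETS core at -89 and a GC box at -12, and SLIT3 an RBPJ core at -115 and a SMAD box at -13. Among 35116 RefSeq promoters, each read over 300 bases that also take in the first 50 transcribed bases, 45.3% held the SMAD box, 45.0% the GC box, 33.6% the ETS core and 24.0% the RBPJ core, so each of these matches is a common one. None of the 4 motifs stood in the ROBO1 promoter nearest to its gene end. RefSeq lists further starts for ROBO1, ROBO2 and ROBO3. By these further starts, ROBO1 held a SMAD box at 39, and ROBO2 a SMAD box at -75 and a GC box at -58. For ROBO3, 1 further start held a SMAD box at 22 and 4 GC boxes. The other held a GC box at -18, an RBPJ core at 38 and no SMAD box. The start used for the printed ROBO4 window lies 635 bases inside the annotated gene, so that whole window falls within the gene. For ROBO3 the start used lies 46 bases inside, so the end of its window falls within the gene. Which start these cells used was not tested.

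Levels are FPKM (fragments divided by transcript length in kilobases and by the mapped fragments of the library), which allows comparison between genes. The depth, recovered from the steps in which low values of single-exon genes change, was about 24252000 and 23370000 fragments for DMSO replicates 1 and 2 and 19567000 and 25981000 for SB replicates 1 and 2. Over all 4 libraries, between 8663 and 33167 fragments stood behind a value of UNC5B, and between 27 and 51 behind a value of SLIT1, estimated from the longest transcript. Differences are given as log2(FPKM + 1) of SB minus DMSO with the standard error (SE) from limma, for genes with a mean of at least 1 FPKM in at least 1 group. Of the 8 genes, 7 passed this filter and SLIT1 did not.

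All 7 tested genes were lower in both SB libraries than in both DMSO libraries, a separation also seen in 16.0% of the 14909 tested genes. None of the 7 passed an adjusted p of 0.05 in limma with Benjamini-Hochberg adjustment over all tested genes. That threshold called 20 genes in all (0.134%), of which 16 were lower with SB (0.107%). At an unadjusted limma p under 0.05, 6 of the 7 were lower with SB, against 5.16% of tested genes in that direction and 9.96% in either direction. The median difference was -0.99 over the 7 genes and 0.04 over all tested genes. SLIT3 is counted in each of these figures, although it passed the filter through its DMSO libraries only. Its lower SB values therefore follow in part from the filter. The members were also chosen with earlier results of these data known, so these figures are descriptive. For a single gene, the exact two-sided permutation test of these 4 libraries has a smallest possible p of 0.333 and was not used. In bulk RNA, fewer cells of a type and less RNA per cell cannot be told apart.

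**Figure D1:**
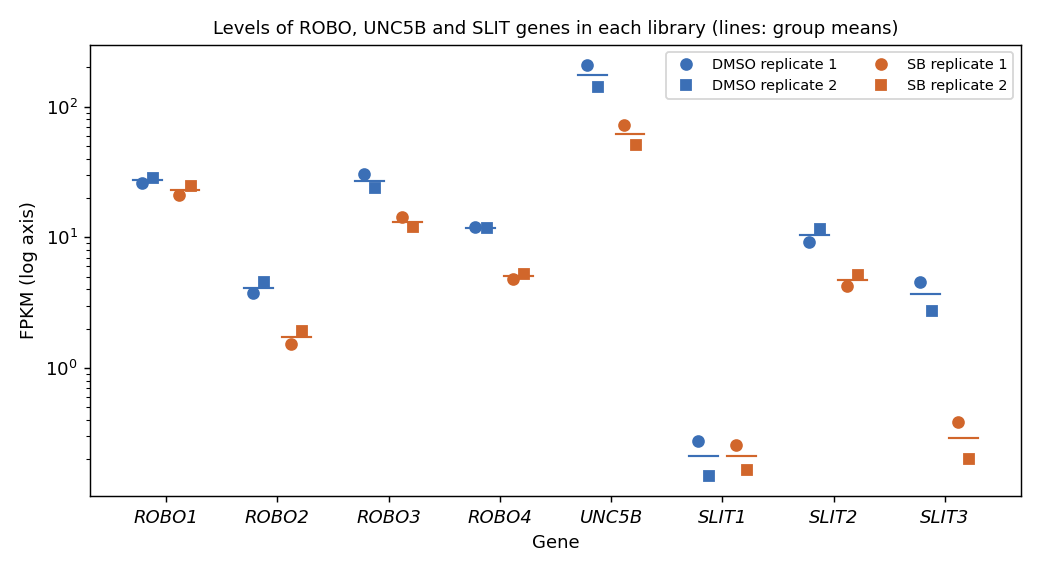
FPKM of the 8 genes on a log axis in the DMSO (blue) and SB (orange) libraries, with circles for replicate 1, squares for replicate 2 and lines for group means. UNC5B lies highest in both groups, SLIT1 overlaps between the groups, and the other 7 genes have both SB points below both DMSO points.

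UNC5B was the most abundant member. Its locus (ENSG00000107731.12) is chr10:71212570-71302864 on the + strand of GRCh38. It stood at 208 and 141 FPKM with DMSO and at 72.2 and 50.8 FPKM with SB. The lowest DMSO value was 1.96 times the highest SB value, and replicate 1 was the higher one in both groups. The group means were 175 ± 47.2 FPKM (SD, n = 2) with DMSO and 61.5 ± 15.1 FPKM (SD, n = 2) with SB, a ratio of 2.84. The difference was -1.49 (SE 0.28, limma adjusted p = 0.205), and 0.758% of tested genes had a lower one. Within replicate numbers the level was 65.3% lower for number 1 and 64.1% lower for number 2. An antisense gene, UNC5B-AS1, overlaps the locus and stood at 1.57 and 1.07 FPKM with DMSO and 0.544 and 0.816 FPKM with SB. Because the library kit named in the labels does not mark the strand, reads of the overlapping stretch cannot be assigned to one of the pair from the strand.

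ROBO4 (ENSG00000154133.14, chr11:124883691-124898500, - strand) had the most even replicates of the receptors. It stood at 12.0 and 11.8 FPKM with DMSO and at 4.83 and 5.26 FPKM with SB. The groups were separated by a gap of 2.24 times between the nearest libraries, far wider than the spread within either group. Its difference of -1.09 (SE 0.16) had the smallest unadjusted p of the members, and the limma adjusted p was 0.135. The ratio of group means was 2.36.

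ROBO3 (ENSG00000154134.14, chr11:124865386-124881470, + strand) is the neighbour of ROBO4. The genes are transcribed toward each other and their ends lie 2220 bases apart. ROBO3 stood at 30.7 and 23.7 FPKM with DMSO and at 14.3 and 12.1 FPKM with SB. Both SB libraries were again below both DMSO libraries, by a gap of 1.65 times. The difference was -0.98 (SE 0.21, limma adjusted p = 0.236). The ratio of ROBO3 to ROBO4 was 2.56 and 2.01 in the DMSO libraries and 2.97 and 2.30 in the SB libraries. The groups overlapped in this ratio, although it was higher with SB within each replicate number.

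ROBO2 (ENSG00000185008.17, chr3:75906695-77649964, + strand) was the least abundant receptor. It stood at 3.75 and 4.52 FPKM with DMSO and at 1.53 and 1.92 FPKM with SB. The level was 59.1% lower within replicate number 1 and 57.7% lower within number 2. The difference was -0.91 (SE 0.20, limma adjusted p = 0.253), and the ratio of group means was 2.40.

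ROBO1 (ENSG00000169855.19, chr3:78597240-79767815, - strand), the widely expressed receptor of SLIT2, stood at 26.3 and 28.6 FPKM with DMSO and at 21.0 and 24.9 FPKM with SB. The groups did not overlap, but the gap of 1.06 times was smaller than the spread within either group. The difference of -0.25 (SE 0.18, limma adjusted p = 0.762) was the smallest of the tested members, and 17.8% of tested genes had a lower one.

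Among the ligands, SLIT2 (ENSG00000145147.19, chr4:20253260-20620561, + strand) was the main one. It stood at 9.20 and 11.6 FPKM with DMSO and at 4.26 and 5.16 FPKM with SB. The groups were separated by a gap of 1.78 times. The difference was -0.99 (SE 0.20, limma adjusted p = 0.219), and the ratio of means was 2.21.

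SLIT3 (ENSG00000184347.14, chr5:168661733-169301129, - strand) showed the largest difference of the members. It stood at 4.57 and 2.76 FPKM with DMSO and at 0.385 and 0.20 FPKM with SB. About 1046 and 607 fragments stood behind the DMSO values and 71 and 49 behind the SB values. The lowest DMSO value was 7.15 times the highest SB value. The level was 91.6% lower within replicate number 1 and 92.7% lower within number 2. The difference was -1.83 (SE 0.28, limma adjusted p = 0.141). SLIT3 passed the filter on low values through its DMSO libraries only, and the added 1 FPKM reduces its log2 difference, since the ratio of the plain means was 12.5.

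SLIT1 (ENSG00000187122.16, chr10:96998038-97185920, - strand) stood at 0.275 and 0.150 FPKM with DMSO and at 0.257 and 0.166 FPKM with SB. The groups overlapped, and the counting error of a single value was between 14.0% and 19.2%. A readthrough transcript from the gene upstream, ARHGAP19-SLIT1, shares its exons and was listed at up to 0.322 FPKM, so the division of reads between the pair is uncertain.

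**Figure D2:**
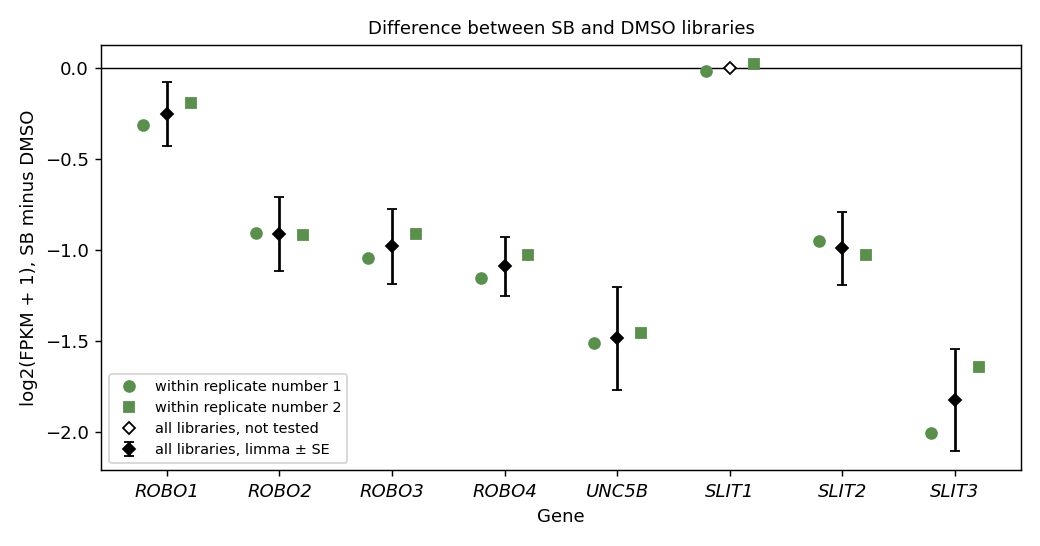
Difference in log2(FPKM + 1), SB minus DMSO, for each gene, with the limma estimate and its SE (black diamonds, open for SLIT1, which was not tested) and the differences within replicate numbers 1 and 2 (green). Both within-number differences lie below 0 for the 7 tested genes, from -0.19 for ROBO1 to -2.01 for SLIT3.

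The order of levels in the DMSO libraries was UNC5B, then ROBO1 and ROBO3, whose values overlapped, then ROBO4, SLIT2, then ROBO2 and SLIT3, which overlapped, and last SLIT1. In the SB libraries ROBO1 stood above ROBO3 with no overlap, ROBO4 and SLIT2 overlapped, and SLIT3 overlapped with SLIT1. The summed level of the 4 ROBO genes was 72.8 and 68.6 FPKM with DMSO and 41.7 and 44.1 FPKM with SB. ROBO1 made up 36.2% and 41.7% of that sum with DMSO and 50.3% and 56.3% with SB. The share of ROBO4 was 16.5% and 17.2% with DMSO and 11.6% and 11.9% with SB. ROBO2 made up 5.15% and 6.60% with DMSO and 3.68% and 4.34% with SB. The share of ROBO3 was 42.2% and 34.6% with DMSO and 34.4% and 27.4% with SB, so that its nearest libraries all but touched. ROBO1 was the only one of the 4 receptors with a larger share in both SB libraries than in both DMSO libraries.

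The summed level of the SLIT genes was 14.0 and 14.5 FPKM with DMSO and 4.90 and 5.53 FPKM with SB. SLIT3 made up 32.5% and 19.0% of it with DMSO and 7.86% and 3.62% with SB. SLIT2 took 65.5% and 79.9% with DMSO and 86.9% and 93.4% with SB. SLIT1, whose own level overlapped between the groups, took 1.96% and 1.04% with DMSO and 5.24% and 3.01% with SB.

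**Figure D3:**
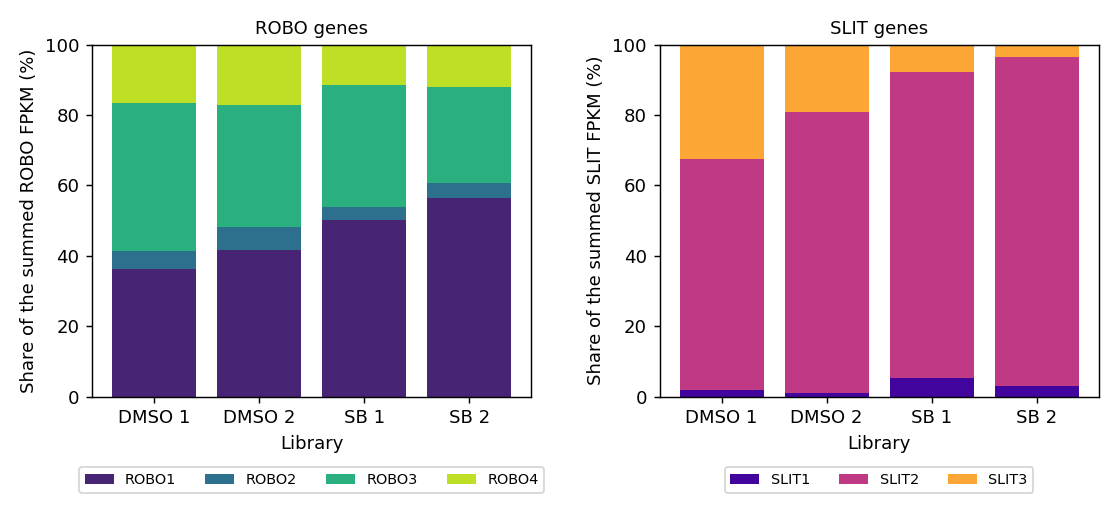
Share of each gene (%) in the summed FPKM of the ROBO genes (left) and of the SLIT genes (right), 1 bar per library. ROBO1, SLIT1 and SLIT2 take a larger share in both SB libraries than in either DMSO library, and ROBO2, ROBO4 and SLIT3 a smaller one. The nearest libraries of ROBO3 all but touch.

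The replicate numbers ordered the members alike in both groups. UNC5B, ROBO3, SLIT3 and SLIT1 were higher in replicate 1 than in replicate 2 of both groups, and ROBO1, ROBO2 and SLIT2 were lower, which is 7 of the 8 genes. The same count was not made over all tested genes, whose deviations in same-numbered libraries correlated at 0.528. The share of mitochondrial genes in the FPKM sum also followed the number, at 5.88% and 6.64% in the replicates numbered 1 and 9.92% and 10.2% in those numbered 2. So did the share of RN7SL1 and RN7SL2, at 4.45% and 3.96% in the replicates numbered 1 and 1.40% and 1.54% in those numbered 2. The part of these shares in the order was not tested.

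The labelled cells were checked against endothelial markers. All 12 genes of the endothelial list were tested and none was called by limma, and at an unadjusted p under 0.05 CLDN5, a tight junction gene, was higher (difference 1.04) and ENG, a co-receptor of the TGFβ family, lower (difference -1.72). Their summed level was 2597 and 2152 FPKM with DMSO and 2519 and 2135 FPKM with SB. The CD31 gene PECAM1 measured 197 and 163 FPKM with DMSO and 182 and 153 FPKM with SB, and CDH5, the VE-cadherin gene, at 273 and 246 FPKM with DMSO and 224 and 202 FPKM with SB. Set against PECAM1 in the same library, ROBO4 was at a ratio of 0.0608 and 0.0722 with DMSO and 0.0266 and 0.0345 with SB. UNC5B was at a ratio to PECAM1 of 1.06 and 0.866 with DMSO and 0.397 and 0.333 with SB. Both ratios to PECAM1 were therefore lower in each SB library than in each DMSO library, and the same held for the ratios to CDH5. This depends on the marker. DMSO over SB, the ratio of group means was 3.45 for ENG, larger than 2.36 for ROBO4 and 2.84 for UNC5B. After scaling to all 12 endothelial genes together, the differences were -0.97 for ROBO4 and -1.35 for UNC5B, with neither called.

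Marker RNA of other cell types also differed between the groups. All 8 tested genes of a mesenchymal list of 10 were lower in both SB libraries, with none called and a median difference of -0.91. The list summed to 418 and 385 FPKM with DMSO and 206 and 212 FPKM with SB. Of 9 tested endoderm and liver genes, 4 (AFP, TTR, APOA1 and APOA2) were called lower, and the summed level of that list was 293 and 331 FPKM with DMSO and 32.0 and 35.7 FPKM with SB. Of 9 tested hematopoietic genes, 8 were higher in both SB libraries, with none called. The CD43 gene SPN measured 31.6 and 36.2 FPKM with DMSO and 52.9 and 66.8 FPKM with SB. In a neural list of 10 genes only TUBB3 passed the filter. TUBB3 stood at 51.4 and 21.1 FPKM with DMSO and at 27.3 and 11.1 FPKM with SB. Its groups overlapped, and the difference of -0.88 was not called. NEUROD1 and FOXD3 were at 0 in all libraries, and no gene under the filter exceeded 0.191 FPKM. The part of these cell types in the levels of the SLIT and ROBO genes was not tested.

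Around the receptors, 49 further genes of the pathway were read in 6 lists, and 37 were tested. None was called by limma, 5 had an unadjusted p under 0.05, all of them lower with SB (5.16% over all tested genes), and the median difference was -0.12. Of the 37, 13 had both SB libraries below both DMSO libraries (16.0% over all tested genes) and 2 had both above (21.5% over all tested genes).

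Of the 18 cytoplasmic effectors, 6 were lower in both SB libraries and 2 higher. ABL2, a tyrosine kinase of the ABL family, stood at 12.5 and 20.8 FPKM with DMSO and at 5.99 and 6.98 FPKM with SB (difference -1.20, limma adjusted p = 0.270). PAK1, a kinase activated by RAC and CDC42, differed by -0.41 and CAP1, an actin regulator, by 0.37. Among the GTPases, CDC42 was above its DMSO values in both SB libraries (186 and 181 FPKM with DMSO, 231 and 199 FPKM with SB, difference 0.22), while RAC1 and RHOA overlapped between the groups, with differences of 0.04 and 0.08, and none was called. The ROBO4 partners on the ARF6 route, PXN, GIT1 and ARF6, differed by 0.07, 0.07 and 0.08, and their libraries overlapped. Those values turn below 0 when single libraries are left out.

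Heparan sulfate proteoglycans hold SLIT at the receptor. The core proteins SDC2, SDC3 and SDC4 were lower in both SB libraries, with differences of -1.02, -1.04 and -0.53 and limma adjusted p of 0.246, 0.460 and 0.479, and so was SDC1 (-0.54), with none called. The core protein GPC1 (difference 0.11), the synthesis enzymes EXT1 and EXT2 and dystroglycan, DAG1, overlapped between the groups. Of other ligands and co-receptors, PLXNA1, a plexin, stood at 16.0 and 11.7 FPKM with DMSO and at 8.27 and 6.70 FPKM with SB (difference -0.80, limma adjusted p = 0.350). FLRT2 and FLRT3, membrane proteins of the FLRT family, differed by -0.46 and 0.39. Of 3 tested genes of receptor trafficking, NDFIP1, NDFIP2 and the deubiquitinase USP33, none was separated between the groups, with differences of -0.13, -0.15 and 0.11.

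UNC5B was more abundant than every other netrin receptor of the list. In the list of netrins and other netrin receptors, 8 of 10 genes were under the filter, with no value above 0.832 FPKM. NTN1, a netrin ligand of UNC5B, lay between 0.150 and 0.313 FPKM, and UNC5A and UNC5D at 0.147 FPKM or lower. The tested pair were NEO1, at 31.0 to 37.8 FPKM (difference -0.03), and UNC5C, at 4.09 to 5.64 FPKM (difference -0.31).

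**Figure D4:**
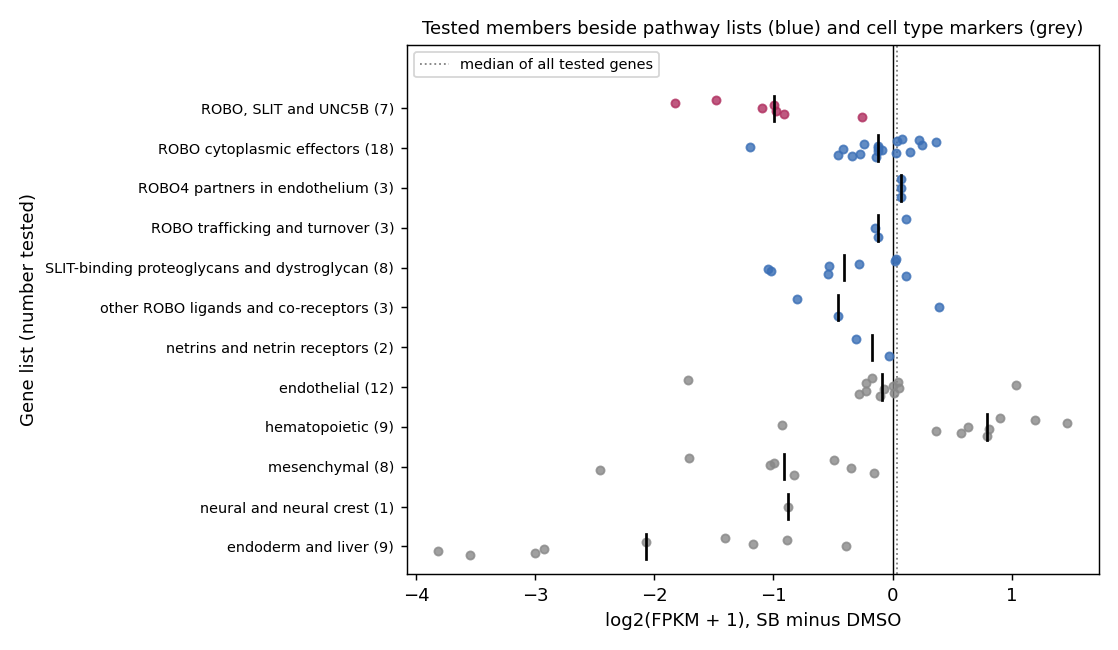
Difference in log2(FPKM + 1), SB minus DMSO, of each tested gene (points) with list medians (black bars), for the 7 tested members (red), the pathway lists (blue) and cell type markers (grey). The members have a median of -0.99 beside -0.12 over the 37 other pathway genes and 0.04 over all tested genes (dotted line).

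The genes whose profile over the 4 libraries lay nearest to UNC5B, by the distance between centred log2(FPKM + 1) values among 10008 genes with a mean of at least 5 FPKM, were LRP1 (distance 0.166), COL9A2 (0.167) and SULF2 (0.197). LRP1 encodes an endocytic receptor, COL9A2 a collagen chain and SULF2 a sulfatase that trims heparan sulfate. LRP1 stood at 23.1 and 15.6 FPKM with DMSO and at 6.89 and 5.57 FPKM with SB, and like UNC5B it was higher in replicate 1 of both groups. Of the other members in that ranking, ROBO3 came 63rd, ROBO4 113th, SLIT2 289th and ROBO1 1839th. With 4 libraries, likeness in profile is a description of these libraries.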

How the data were processed

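The authors deposited FPKM values, 1 column per library, for H1-derived cells of 4 libraries. The submitters' processing notes name BWA, Bowtie, RSEM and hg19, without versions, whereas the loci in the table are those of GRCh38: 95.5% of its identifiers were found with their version in GENCODE 29, and 99.97% of these at the same position. Sequencing was done by a service company from unstranded TruSeq libraries. Groups and replicate numbers came from the sample titles, and no column was left without a sample.

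FPKM were taken as deposited, since no further scaling is stated, and turned into log2(FPKM + 1). Genes with a mean of at least 1 FPKM in at least 1 group (14909) were fitted with limma 3.58.1 (R 4.3.3), with a trended variance and no block, with Benjamini-Hochberg adjustment of the p-values over all of them. The fit was tested on simulated data. Depth was taken from values of single-exon, single-transcript genes, of which 96.2% to 96.9% were whole within 0.05 fragments. It is an estimate, and counting errors cover counting only.

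Named genes were all 8 members, in each pathway list those with an adjusted p under 0.05 filled up to the 3 smallest unadjusted p, the 3 nearest profiles to the most abundant member, PECAM1, CDH5 and SPN among markers, and overlapping genes. CLDN5, ENG, AFP, TTR, APOA1, APOA2, RAC1, CDC42, RHOA, SDC1, GPC1, EXT1, EXT2, DAG1, NTN1, UNC5A, UNC5D, TUBB3, NEUROD1 and FOXD3 were named after their values were seen. The members and lists were chosen with earlier results of these data known. Alternatives were another pseudocount (0.1), other filters, 4 scalings, the replicate number as a block and leaving out each library.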

Additional observations from a re-analysis of the deposited data

How the results depend on the processing

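With 2 libraries per group, each gene brings only 4 values to the main test. Limma draws the variance of each gene toward a trend over all tested genes. A missed threshold does not show equal levels. None of the 7 tested members changed direction under any alternative run, and without the block none was called. SLIT1 entered only the run with no filter. The members ranged from -0.37 to -0.12 for ROBO1, -1.22 to -0.81 for ROBO2, -1.16 to -0.80 for ROBO3, -1.22 to -0.97 for ROBO4, -1.15 to -0.84 for SLIT2, -3.26 to -1.54 for SLIT3 and -1.76 to -1.21 for UNC5B. The value of -3.26 came from a pseudocount of 0.1, which weighs low levels more. A filter of 5 FPKM in 2 libraries left out ROBO2 and SLIT3. Each member has 1 row, so summing rows was not run.

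With the replicate number as a block, 6 members were called: ROBO2 (-0.91), ROBO3 (-0.98), ROBO4 (-1.09), SLIT2 (-0.99), SLIT3 (-1.83) and UNC5B (-1.49). Of the 37 other pathway genes tested, 6 were called: ABL2, PLXNA1, SDC2, SDC3 and SDC4 lower with SB, and CAP1 higher (0.37). Over all 14909 tested genes, that fit called 1564, 820 higher and 744 lower. The block is fitted to the same 4 libraries, so each gene has fewer free values left for its variance than in the main test. Deviations of same-numbered libraries correlated at 0.528, but the labels do not say that a number marks a shared culture or day, so pairing is not established. Over all genes, no filter gave 0 calls in limma (0 higher, 0 lower, with 2739 genes at an unadjusted p under 0.05), quantile normalization gave 31 (9 higher), and leaving out single libraries gave 0 to 16 (0 to 12 in each direction). Scaling to endothelial markers moved the median of all tested genes from 0.04 to 0.16 and turned NDFIP1 to 0.0094 and NEO1 to 0.11. Leaving out single libraries gave ranges across 0 for ARF6 (-0.025 to 0.17), GIT1 (-0.26 to 0.40), NDFIP1 (-0.39 to 0.13), NEO1 (-0.17 to 0.11), PXN (-0.37 to 0.51) and USP33 (-0.18 to 0.41). None of these genes was called.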
